A study of Mus musculus with 38 samples.

Results

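The translesion DNA synthesis genes examined here were Polk, Polh, Poli, Rev1, Rev3l, Mad2l2 and Rad18, taken from a list of the pathway and matched to array probes by transcript accession. They are 7 of the 20018 genes that could be named on the array, with 9 of its 55681 probes: Polk and Rad18 had 2 probes each and the other genes had 1. Their expression was followed in lung and forestomach of male MutaMouse, a transgenic strain built for mutation assays, aged about 10 weeks. The mice were given dibenz(a,h)anthracene (DBahA) in olive oil by gavage on 28 days. The daily amounts per kg of body weight were 6.25 mg in group D1, 12.5 mg in group D2 and 25 mg in group D3, the D0 mice received the oil without DBahA, and tissue was collected 72 h after dosing ended. From D0 upwards there were 5, 5, 4 and 5 lungs and 5, 5, 4 and 4 forestomachs. The labels number the mice and use the same numbers for both tissues, except that D3 mouse 20 has a lung array and no forestomach array, while 2 forestomach arrays carry the number of D3 mouse 18. The first of these lay on the same array slide as the lung of mouse 18, and the second on the same slide as the lung of mouse 20. They were averaged to 1 value as labelled, and whether both came from the same animal was not tested. RNA came from random sections of frozen tissue, so fewer cells of a type and less RNA per cell cannot be told apart.

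DBahA is a polycyclic aromatic hydrocarbon that cells turn into diol epoxides, which bind to the bases of DNA. Replicative polymerases stall at such bulky adducts. In translesion synthesis, Rad18 attaches ubiquitin to the sliding clamp PCNA at the stalled fork, and specialised polymerases are then recruited to copy past the lesion. Polk, Polh and Poli encode the Y-family polymerases kappa, eta and iota. Rev1, the fourth Y-family enzyme, also serves as a scaffold for the others. Rev3l is the catalytic subunit of polymerase zeta, which extends from the inserted base, and Mad2l2 (Rev7) is its accessory subunit. Polymerase kappa is known for inserting the correct base opposite bulky adducts of guanine made by polycyclic aromatic hydrocarbons.

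Only Polk among these genes passed the test of the response to DBahA in lung, and its promoters are therefore shown. RefSeq promoter windows (build GRCm38.p6) were used for 5 of the 7 genes. Poli was left out of the search, and no window of full length was found for Rev3l. The 250 bases before each of the 2 annotated Polk starts are given 5′ to 3′ on the minus strand, with capitals for matches to the motifs searched. These were the core of the xenobiotic response element bound by the aryl hydrocarbon receptor (GCGTG, both strands), the GC box (GGGCGG, both strands) and the p53 half-site (both strands).

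Polk, upstream start, chr13:96542580-96542829: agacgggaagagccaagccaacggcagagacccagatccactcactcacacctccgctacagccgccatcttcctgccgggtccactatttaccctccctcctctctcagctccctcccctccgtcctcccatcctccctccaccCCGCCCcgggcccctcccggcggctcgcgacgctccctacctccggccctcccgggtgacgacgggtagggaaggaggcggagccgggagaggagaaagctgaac

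Polk, downstream start, chr13:96519188-96519437: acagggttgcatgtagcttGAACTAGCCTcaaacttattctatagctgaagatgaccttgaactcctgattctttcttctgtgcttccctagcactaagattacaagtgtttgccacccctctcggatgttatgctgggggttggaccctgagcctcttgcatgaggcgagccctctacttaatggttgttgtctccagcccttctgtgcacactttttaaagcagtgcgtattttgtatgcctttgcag

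The window of the upstream start, with 68% G and C, held 1 GC box, and that of the downstream start held 1 p53 half-site. Neither held the xenobiotic response element core. Of all 32851 promoter windows, 28.2% held the response element core, 32.7% a GC box and 7.13% a p53 half-site. The core was found in the window of Polh (1 match) and of Rev1 (2 matches), and in none of the windows of Mad2l2 and Rad18. These matches are letters in a window and not measured sites.

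The arrays were read as log2 ratios of the tissue RNA over a common reference RNA, so a difference of 1 is a doubling. The labelled tissues matched their markers. The mean log2 ratio of 7 lung epithelial genes was 5.64 to 6.17 in control lungs and 0.66 to 1.22 in control forestomachs, and 7 squamous genes gave 2.93 to 3.32 in control forestomachs. Glandular stomach markers (9 genes) stood at 0.37 to 0.94 on 6 forestomach arrays and at 4.83 to 6.90 on the other 13, and the 2 arrays of D3 mouse 18 fell on both sides. None of the 7 genes was called in forestomach at any dose, with or without these markers as a covariate. As there was no call to lose, this cannot show whether glandular tissue altered the differences. Heart muscle markers (6 genes) ranged from 0.29 to 3.46 over the lungs, with means of 1.23 at D0 and 1.75 at D3. Markers of B lymphocytes (6 genes, 0.73 and 0.61) and of fat (5 genes, 0.84 and 0.62) had overlapping lung ranges at D0 and D3. The share of probes with a tissue signal well above background ran from 30.1% to 63.8% among the arrays.

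Polk expression rose in lung at D2 and D3. On the brighter Polk probe (probe 1), the 5 lungs of D0 gave -0.58, -0.41, -0.41, -0.36 and -0.28. The 5 lungs of D1 gave -0.23, 0.05, 0.11, 0.23 and 0.26. The 4 lungs of D2 gave 0.00, 0.45, 0.45 and 0.70. Every exposed lung was above every control lung at each dose. The share of all probes that separate in this way is not given here. The 5 lungs of D3 gave -0.02, 0.00, 0.43, 0.45 and 0.50, which split into a lower pair (mice 18 and 20) near the D1 values and 3 mice near the D2 values. The difference from D0 was 0.49 ± 0.13 (SE) for D1, 0.81 ± 0.14 for D2 and 0.68 ± 0.13 for D3, which are 1.41-fold, 1.75-fold and 1.61-fold. These comparisons share the 5 D0 lungs. Calls needed a limma p, adjusted over all probes by Benjamini-Hochberg, of 0.05 or less together with a change of 1.5-fold or more. By this rule 0 of the 7 genes were called at D1, where 0.14% of all probes were. Polk was the 1 of 7 called at D2 (limma adjusted p = 0.00485), against 0.264% of all probes, and the 1 of 7 called at D3 (limma adjusted p = 0.00743), against 0.639% of all probes. At D1 its limma adjusted p was 0.226.

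**Figure D1:**
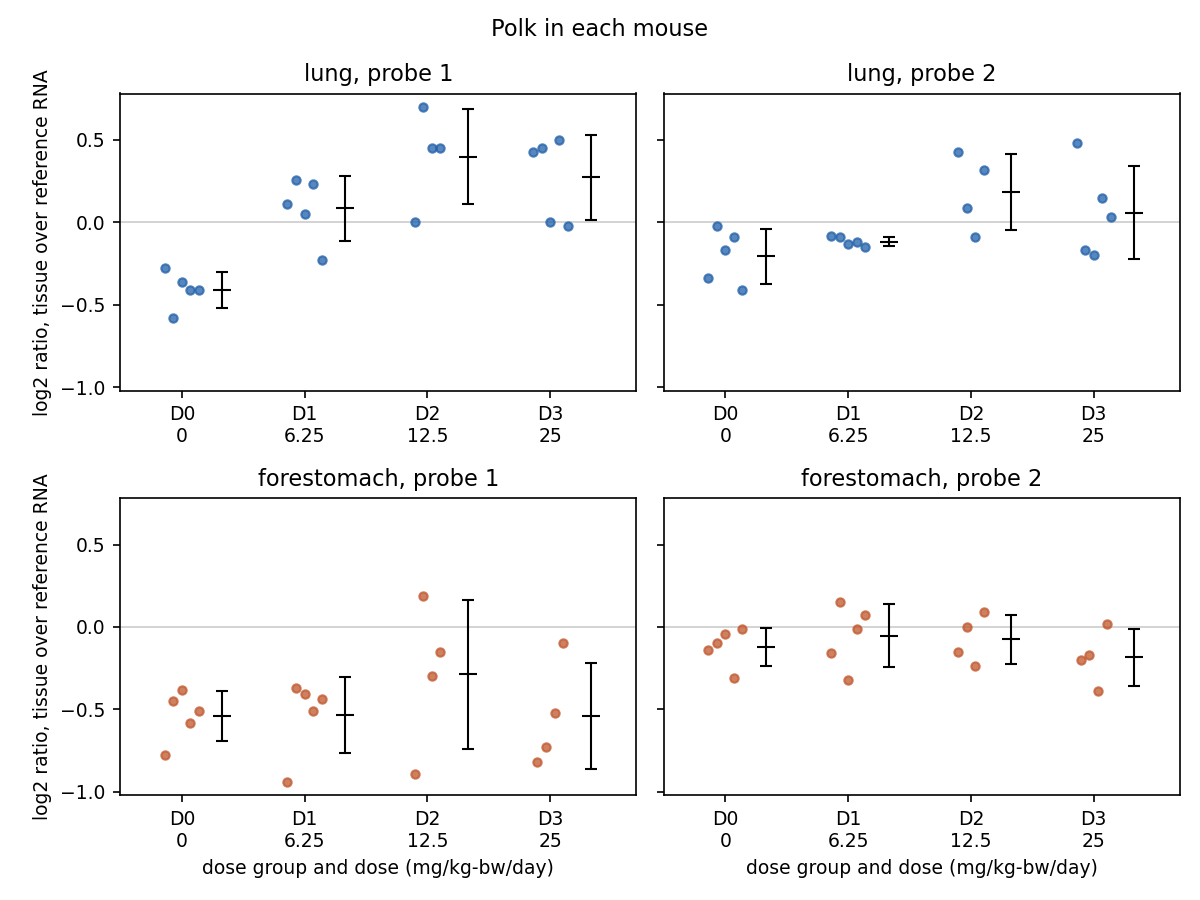
Log2 ratio of Polk (tissue over reference RNA) in each mouse, by dose group, for both probes in lung and forestomach. Each point is 1 mouse, and the bar beside the points gives the group mean with its SD. On probe 1 all exposed lungs lie above all 5 control lungs, while the forestomach groups overlap.

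The exposed doses could not be ordered by their Polk levels. D2 lay 0.31 above D1 (95% interval 0.03 to 0.60), D3 0.19 above D1 (-0.08 to 0.46) and D3 0.13 below D2 (-0.41 to 0.16), and none of these differences passed over all probes. Between D3 and D1, 0 of the 7 genes and 0% of all probes were called by limma, with 2448 probes at an unadjusted p under 0.05. Polk was also the 1 gene of 7 called for a linear trend over the 4 doses, with 0.63 per 25 mg/kg (limma adjusted p = 0.0125), where 0.492% of all probes were called. That trend was no longer called without D3 mouse 16, 17 or 19. Each of 5 slides held mice of several dose groups, but the slide of mice 6, 11 and 16 held no D0 lung. Within the other slides Polk was above D0 on 4 of 4 at D1 (0.18 to 0.63), on 3 of 3 at D2 (0.81 to 1.03) and on 4 of 4 at D3 (0.40 to 0.86). The D2 count thus leaves out mouse 11, the lowest D2 lung at 0.00. Within the 3 scan days the D3 difference was 0.72, 0.72 and 0.40.

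The second Polk probe gave smaller differences in the same direction. Its D0 lungs ranged from -0.41 to -0.02 and its D3 lungs from -0.20 to 0.48, so the groups overlapped. Its difference from D0 was 0.09 ± 0.12 for D1, 0.39 ± 0.13 for D2 and 0.27 ± 0.12 for D3 (limma adjusted p = 0.944, 0.306 and 0.392). This probe was well above background in the tissue channel on 13 of 19 lung arrays, against 19 of 19 for probe 1. Both probes carry the same RefSeq transcript accession, and whether they read the same transcripts was not tested. The call of Polk also ended when each array was centred on its median in place of loess: the D3 difference was then 0.87 with a limma adjusted p of 0.732, while the median of the bright probes shifted by 0.41 in the same comparison.

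In forestomach, the tissue first exposed by gavage, no translesion synthesis gene was called. The D0 forestomachs gave Polk log2 ratios of -0.78, -0.58, -0.51, -0.45 and -0.38. The D3 forestomachs gave -0.82, -0.73, -0.52 and -0.10. These groups overlapped throughout, and the difference was 0.01 for D1, 0.25 for D2 and -0.0011 for D3, with a 95% interval of -0.40 to 0.39 at D3. With slide as a block the D2 difference was 0.38 ± 0.15 (0.06 to 0.71, limma adjusted p = 0.922), and D2 was above D0 on 3 of 3 slides (0.15 to 0.96). That count leaves out mouse 11, the lowest D2 forestomach at -0.89, whose slide held no D0 array. Within slides D1 was higher on 3 of 4 (-0.14 to 0.41). The probe was well above background on 16 of 19 forestomach arrays. By limma, 0% of all probes were called in each of the 3 comparisons with D0, although 2404, 1728 and 1984 probes had an unadjusted p under 0.05. The response of Polk was larger in lung than in forestomach by 0.68 ± 0.23 at D3 (95% interval 0.21 to 1.15). This difference of responses did not pass over all probes (limma adjusted p = 0.517), and 0 of the 7 genes were called for it against 0.172% of all probes.

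The other Y-family polymerases showed no called change in either tissue. Polh, the polymerase eta that copies past ultraviolet photoproducts, differed from D0 in lung by 0.09, 0.0004 and 0.02 at D1, D2 and D3 (95% interval -0.33 to 0.37 at D3). In forestomach its difference was -0.03, -0.18 and -0.29 (-0.63 to 0.05 at D3), and all 4 D3 mice lay below the D0 mean. Poli, polymerase iota, stayed within 0.09 of D0 in lung at all doses (-0.12 to 0.30 at D3) and was 0.12 above D0 in forestomach at D3 (-0.19 to 0.44). Rev1 was 0.19, 0.18 and 0.19 above D0 in lung, with D0 lungs from -0.94 to -0.41 and D3 lungs from -0.76 to -0.31. The SE of that D3 difference was 0.15 and its 95% interval ran from -0.12 to 0.49, an interval that reaches the Polk difference of 0.49 at D1.

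**Figure D2:**
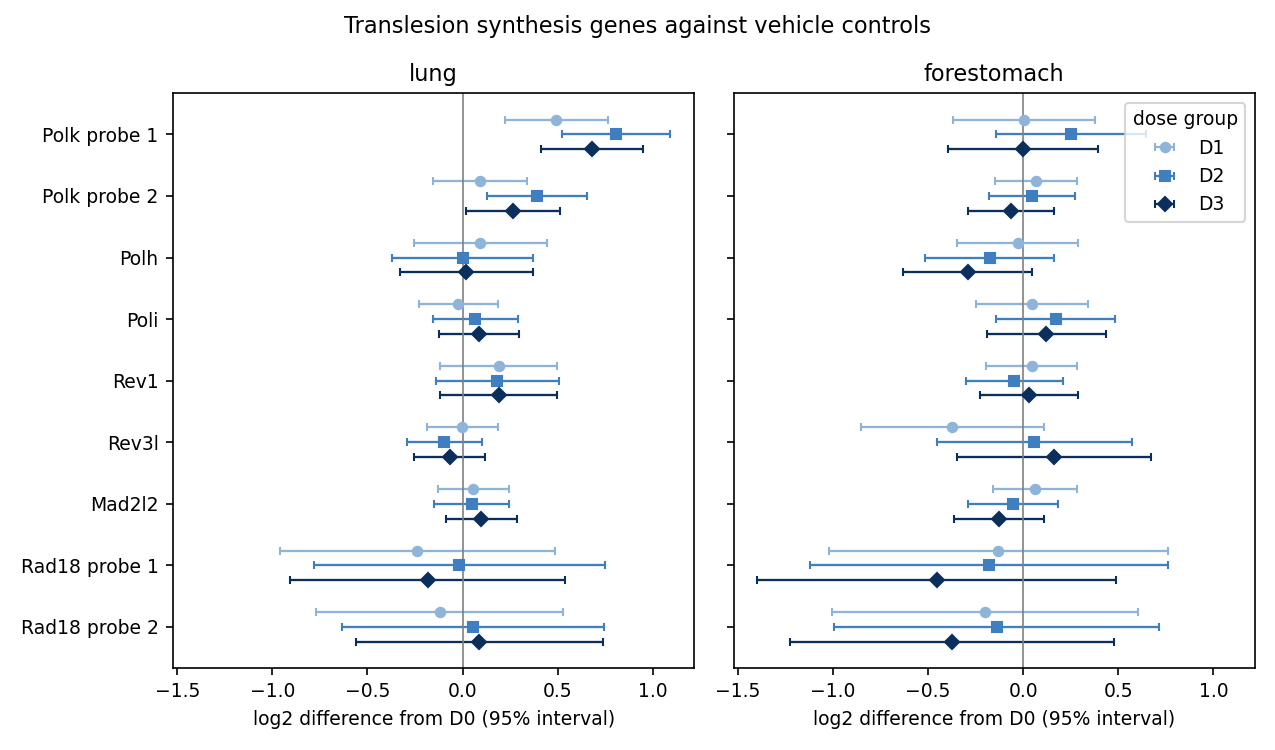
Difference of each exposed group from D0 for every probe of the 7 genes, in lung (left) and forestomach (right). Symbols give the log2 difference at D1, D2 and D3 and bars its 95% interval. In lung the intervals of Polk probe 1 lie above 0 at all doses, whereas the intervals of Rad18 span more than 1 log2 unit.

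Neither subunit of polymerase zeta was called in either tissue. In lung Rev3l differed from D0 by -0.0019, -0.10 and -0.07, with a 95% interval of -0.25 to 0.12 at D3. Mad2l2 differed by 0.06, 0.05 and 0.10, with an interval of -0.09 to 0.28 at D3. Both D3 intervals end below the Polk difference of 0.68. In forestomach Rev3l values were spread more widely, with D1 mice spread from -1.58 to -0.50 and D2 mice from -1.04 to 0.07, and its difference at D3 was 0.16 (-0.35 to 0.67). Mad2l2 in forestomach was 0.13 below D0 at D3 (-0.36 to 0.11). Across all 7 genes the median difference in lung was 0.06, 0.05 and 0.09 at D1, D2 and D3, and with the fold threshold removed Polk was still the only gene called at D3, where 1.33% of all probes passed.

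Rad18, the ubiquitin ligase that starts the pathway, had by far the widest spread, and its values followed the day on which the arrays were scanned. On probe 1 the 7 lung arrays of the first scan day ranged from -2.52 to -1.87, the 8 of the second from -1.27 to -0.87 and the 4 of the third from -2.08 to -1.78. Forestomach showed the same order, with means of -2.14, -0.70 and -1.42. The ranges of the 3 scan days did not overlap in forestomach, and in lung those of the first and the third overlapped. Scan day took 91.7% of the variance of this probe over the lung arrays and 94.1% of that of the second Rad18 probe, where the median was 18.6% over all probes and 26.4% over those well above background on all lung arrays. Dose group took 3.28% and 2.47%, where the median was 14.3% over all probes and 16% over those well above background on all lung arrays. The reference channel moved as well: the mean log2 Cy3 intensity of probe 1 on the lung arrays was 10.18, 8.90 and 9.53 on the 3 days, while the median of the probes bright on all arrays was 10.51, 10.44 and 10.67. The reference RNA carries no DBahA treatment. What differed between the scan days was not tested. For scan day, Polh, with 85.5%, and Poli, with 73.7%, were also high in lung, whereas Polk had 26.3%, with 71.3% for dose group. That 71.3% rests on the same differences as the call of Polk.

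**Figure D3:**
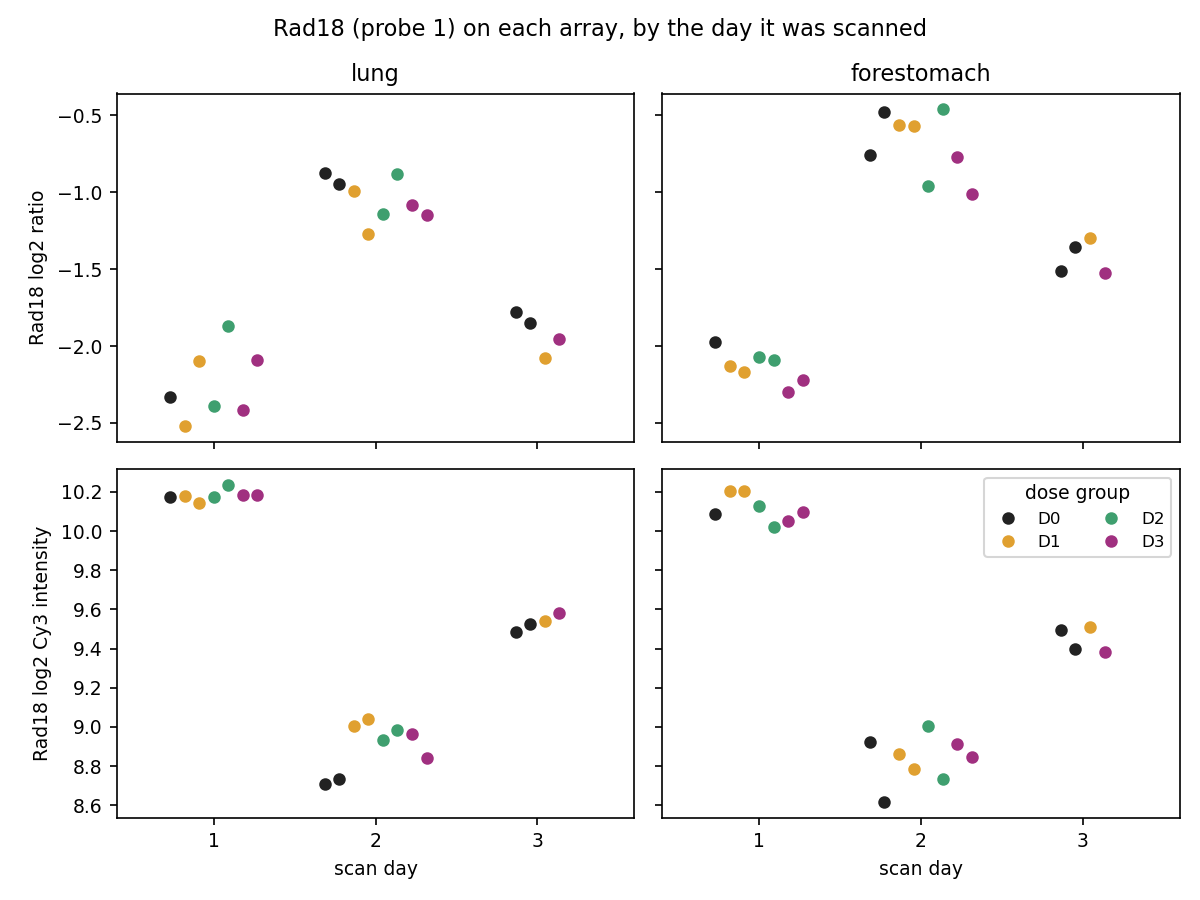
Rad18 probe 1 on every array, grouped by scan day and coloured by dose group, in lung (left) and forestomach (right). The upper row gives the log2 ratio and the lower row the log2 intensity of the reference RNA channel. The second scan day lies apart from the others in both rows and both tissues, and the dose groups overlap.

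Every dose group except D2, which was not on the third day, was spread over all scan days in lung, so doses could be compared within them. Without a term for the day or slide, Rad18 probe 1 was 0.18 below D0 at D3 in lung with an SE of 0.35. With the slide as a fixed block the difference was -0.08 ± 0.09 (95% interval -0.27 to 0.11), and that of probe 2 was 0.16 ± 0.07 (0.01 to 0.32). The probes thus differed in sign, and neither was called (limma adjusted p = 0.749 and 0.266). In forestomach the arrays of D3 mouse 18 lay on different slides and scan days, with probe 1 at -0.77 on the second day and -1.52 on the third, so that their mean belongs to neither slide. With the slide block and only the first of these arrays, the D3 difference was -0.23 ± 0.11 (95% interval -0.48 to 0.01) for probe 1 and -0.26 ± 0.14 (-0.57 to 0.04) for probe 2. With only the second array it was -0.25 ± 0.10 and -0.26 ± 0.12, and with both as separate samples -0.21 ± 0.10 and -0.16 ± 0.13. None of these passed over all probes (limma adjusted p from 0.631 to 0.988). Array by array, probe 1 differed from D0 by -0.29, -0.27 and -0.09 within the 3 scan days and probe 2 by -0.24, -0.14 and 0.11, so the direction of probe 2 was not the same on all days. With the same block Polk in lung was 0.47 ± 0.11, 0.75 ± 0.12 and 0.66 ± 0.11 above D0 at D1, D2 and D3 (limma adjusted p = 0.0523, 0.00276 and 0.00124).

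Levels of Mad2l2 and Polh differed between the control tissues, as did those of many other probes. Mad2l2, which also takes part in end protection at double-strand breaks, gave -0.95, -0.90, -0.87, -0.83 and -0.49 in the control lungs and -1.80, -1.61, -1.58, -1.54 and -1.36 in the control forestomachs. No control forestomach reached the lowest control lung, and lung was higher by 0.77 ± 0.10, or 1.71-fold (limma adjusted p = 8.32e-08). Mad2l2 was the 1 of 7 genes (14.3%) called between the tissues, where 16.2% of all probes were called. Polh ran the other way, with control lungs from -1.19 to -0.66 and control forestomachs from -0.51 to -0.22. Lung was lower by 0.54 ± 0.17 (limma adjusted p = 0.0134), which is below the fold threshold, and without that threshold 2 of 7 genes and 27.7% of all probes passed. Both counts were near the share over all probes and do not set these genes apart from others. Leaving out control lung of mouse 3 or 4 moved Polh past the fold threshold as well. Each of the 5 control mice had more Mad2l2 (0.66 to 0.93) and less Polh (-0.74 to -0.38) in its lung than in its forestomach. The Polh probe was well above background on only 2 of 5 control lung arrays and 2 of 5 control forestomach arrays. Over all dose groups these counts were 11 of 19 and 9 of 19. Polk was 0.13 higher in control lung (95% interval -0.19 to 0.45), and Rev3l 0.26 higher (-0.10 to 0.61), neither of them called. Both Rad18 probes were lower in lung in all 5 control mice, by 0.34 on probe 1 and 0.46 on probe 2, under the fold threshold. Their limma adjusted p was 0.607 and 0.398 without a block, and 0.0108 and 3.28e-05 with the slide block. Probe 2 was well above background on only 3 of 5 control lung arrays and 1 of 5 control forestomach arrays. For probe 1 these counts were 5 of 5 and 4 of 5. Whether the low signal of probe 2 altered its difference was not tested.

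**Figure D4:**
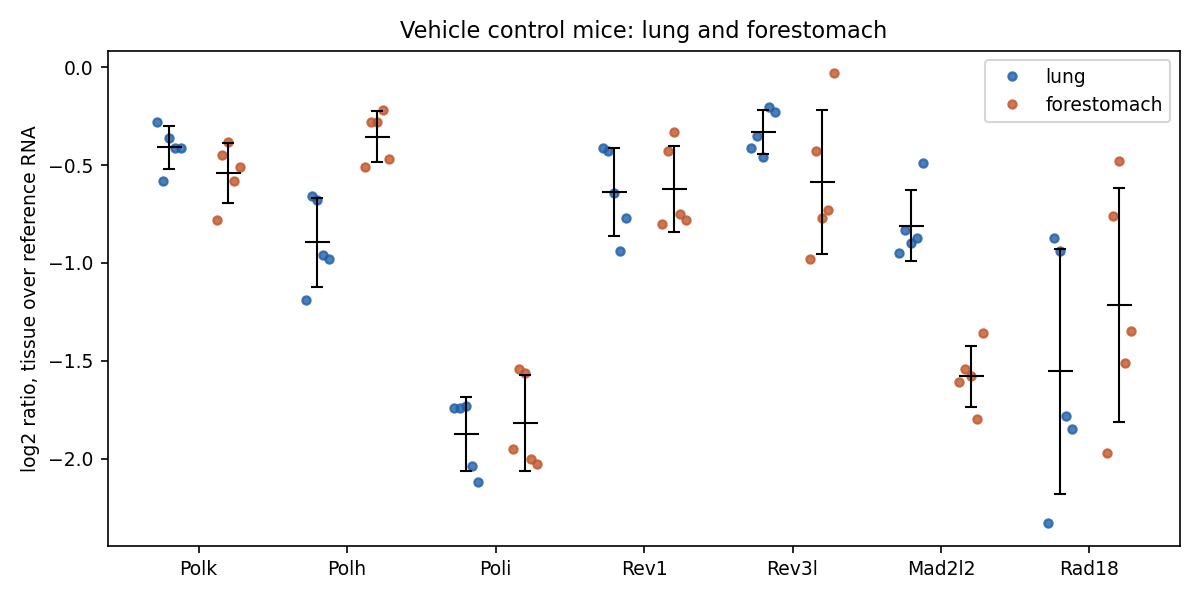
Log2 ratio of the counted probe of each gene in the 5 control mice, in lung and forestomach. Points are mice, and bars give the mean and SD. The 2 tissues do not overlap for Mad2l2 or Polh, and a ratio to the reference cannot be set against that of another gene.

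The genes around the pathway were followed in lists. Of 12 genes of the PCNA ubiquitin switch (the clamp and the enzymes that place or remove its ubiquitin), 0 were called in lung at D3, and the median difference was -0.03 with 5 of 12 higher. Pcna, the clamp itself, was 0.27 ± 0.09 above D0 (limma adjusted p = 0.165), and Usp1, which removes the ubiquitin, was 0.19 ± 0.08 above (0.355). Of 9 measured genes of other damage tolerance, 0 were called, with a median of 0.09. Primpol, which restarts synthesis beyond a lesion, was 0.11 ± 0.10 below D0 (limma adjusted p = 0.756). Among 11 replicative and repair polymerases, 10 were higher and 1 was called: Pole, the leading-strand polymerase epsilon, which rose by 0.61 ± 0.12 (limma adjusted p = 0.0088). In all these lists 0 genes were called in forestomach at D3.

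**Figure D5:**
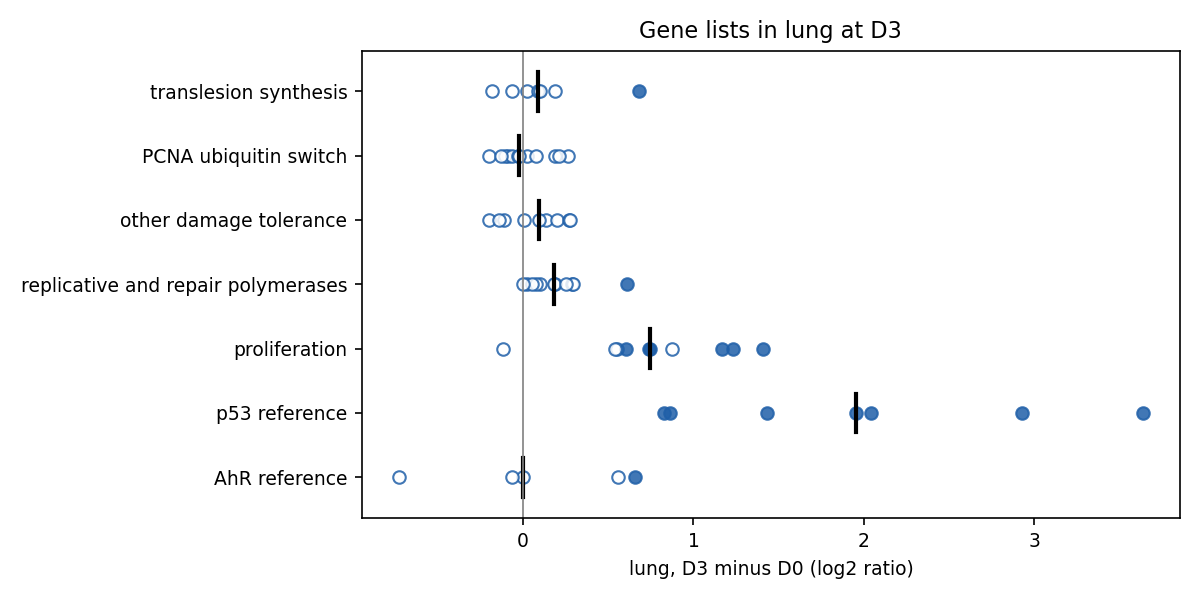
Difference between D3 and D0 in lung for the genes of each list. Each point is 1 gene, filled where called, and the vertical bar is the median of the list. Polk lies inside the range of the called proliferation genes, and all 7 genes of the p53 reference list are called.

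Other groups of genes in the same lungs held differences both larger and smaller than that of Polk. Called at D3 were 6 of 10 genes of proliferating cells: Rrm2 at 1.41, Mki67 at 1.23, Ccna2 at 1.17, Cdk1 at 0.75, Ccnb1 at 0.74 and Mcm2 at 0.60. The 10 genes of this list had a median of 0.74. Their mean log2 ratio ran from -3.28 to -2.87 over the D0 lungs and from -2.46 to -2.07 over the D3 lungs. All 7 genes of a reference list of p53 targets rose (median 1.95), among them Gdf15 by 3.64, Cdkn1a, the cell cycle inhibitor p21, by 2.93, Phlda3 by 2.04, Ccng1 by 1.95, Bax by 1.43, Sesn2 by 0.86 and Mdm2 by 0.83. Of 5 targets of the aryl hydrocarbon receptor, the sensor of such compounds, 1 was called (Cyp1b1, 0.66). Ahrr was 0.55 ± 0.09 above D0 (limma adjusted p = 0.00206), which is below the fold threshold. Cyp1a1 was at -0.73 ± 0.47, Tiparp at 0.0011 ± 0.10 and Nqo1 at -0.07 ± 0.12. Heart muscle markers were higher at D3 for 5 of 6 genes, with 0 called. The part of proliferating cells or of other cell types in the Polk difference was not tested.

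Of the 5 genes whose lung values were most like those of Polk, Mdm2 is in the p53 list and Ccnb1 in the proliferation list. Over the 19 lungs and among 14371 probes, Pearson's r with Polk probe 1 was 0.92 for Mad2l1, a spindle checkpoint gene, 0.92 for Naip2, a sensor of bacterial proteins, 0.91 for 2810408A11Rik, 0.90 for Mdm2 and 0.90 for Ccnb1. With the dose group means taken out, r was 0.73, 0.85, 0.76, 0.67 and 0.63. All points share the arrays, reference and scan days of the Polk values. Mad2l1 rose by 0.66 at D3, and Naip2 was 0.43 higher without passing (limma adjusted p = 0.0718).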

How the data were processed

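RNA of 2 tissues was labelled with Cy5 and hybridised with universal mouse reference RNA, a pool of mouse cell lines labelled with Cy3, to 38 Agilent two-colour arrays, with no dye swap. The deposited scanner files, made by the authors with Feature Extraction 10.7.3.1, hold the median intensity of 62976 spots per array, and a log10 ratio computed by that software. The authors also deposited a table of processed log2 ratios. Its slope on the values used here was 0.990 to 0.998, and its centring and background treatment are not stated in it.

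From the median intensities, with no background subtracted, each array was loess-normalized in limma 3.58.1 (R 4.3.3, statmod 1.5.0). Control spots were left out, spots of a probe averaged and 372 values with an outlier flag removed. No spot was saturated, and the number of arrays limits the precision. Symbols came from RefSeq accessions (GRCm38.p6). The array files use mm9, so only the promoter table's coordinates are given. Where a gene had 2 probes, the brighter was counted.

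Each tissue was fitted with limma over its 4 dose groups, and both tissues in 1 fit for comparisons between them. The study used MAANOVA, for which limma stands in, with its threshold (false discovery rate 0.05, fold 1.5). Mice were housed singly, per the labels, and the arrays lay on 5 slides with 3 scan days. Apart from D3 mice 18 and 20 the tissues carry the same mouse numbers. The deviations of same-numbered arrays of the 2 tissues from their group means correlated with a median r of 0.23 (0.08 to 0.37, 18 pairs). Other mice of the same dose gave -0.08. The 18 pairs include mouse 18 with its 2 forestomach arrays averaged. Same-numbered arrays also shared a slide and scan day, apart from the second array of mouse 18, while other mice of a dose mostly did not. Within a group the deviations balance out, so a positive value for same-numbered arrays pulls the others negative. These values therefore cannot show that equal numbers mark the same animal. The fits were tested on simulated lung data with independent noise, which held no slide or scan day effect.

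The genes, lists and tests were chosen with earlier results of these data known. Named genes were all 7 genes with every probe, list genes called at D3 plus Pcna, Usp1 and Primpol, and the 5 genes most correlated with a called gene. The targets of the aryl hydrocarbon receptor were named as well. Alternatives varied the background correction, normalization, filter, blocks, probe, mouse 18 arrays and replicates.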

Additional observations from a re-analysis of the deposited data

Results flagged for a closer look

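Of 72 sets of 1 probe in 1 group, 3 held a mouse far from the rest of its group, and chance alone marks about 1 in 20 such sets. In D1 forestomach, Polk probe 1 of mouse 6 was at -0.94 where the other 4 mice lay between -0.51 and -0.37. In D1 forestomach, Rev1 of mouse 9 was at -0.18 where the others lay between -0.74 and -0.59. In control lung, Mad2l2 of mouse 1 was at -0.49 where the others lay between -0.95 and -0.83, and that value was still above every control forestomach.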

How the results depend on the processing

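Polk kept its call in lung at D2 and at D3 under 11 of 13 alternatives each and without any single mouse. The exceptions were median centring and the other probe. Under these the number of called genes was 0 at D2, at D3 and for the trend. For the trend it was also 0 with scan day as a block. Among the alternatives that kept the call, quantile normalization of the mean intensities after loess leaves the log2 ratios unchanged, so it could not alter any call. Without single mice, 0 to 1 genes were called for the trend and 1 to 2 between control tissues. With mouse number as a fixed or random replicate block (paired fit), 0 genes were called for the difference of responses and 1 between control tissues, as in the unpaired fit, and no call changed. The differences below changed sign, none of them called, and the cause was not tested. Under median centring these were Rev3l 0.36 and Rad18 0.10 in lung at D3, Polk 0.42, Polh 0.0653, Mad2l2 0.62 and Rad18 0.0666 in forestomach at D3, Rev1 -0.0559 and Mad2l2 -0.0812 for the difference of responses, and Poli 0.54, Rev1 0.39 and Rad18 0.17 between control tissues. With the Feature Extraction ratio they were Polk -0.14 (D1) and 0.072 (D3) and Mad2l2 0.0021 (D3) in forestomach, Rev1 -0.0281 for the difference of responses, and Poli 0.17 and Rev1 0.36 between control tissues, and normexp gave Rev1 0.0508 there. In forestomach, Polk was -0.0109 at D1 in the authors' table and at D3 was 0.13 with slide as a fixed block, 0.0533 with scan day, 0.0291 with slide as a random block, 0.081 with the second array of mouse 18 and 0.0032 with both. Rev1 in forestomach at D3 was -0.0168, -0.0164 and -0.0031 with slide, scan day and that second array. Poli for the difference of responses was 0.0133, 0.0158, 0.0091 and 0.013 with slide, scan day, both arrays and the fixed replicate block. In fits added after seeing the data, with slide as a fixed block and the arrays of mouse 18 on their own slides, the numbers of called genes were unchanged. Polk in forestomach at D3 was then 0.0415, 0.2283 and 0.1249 with the first, the second and both arrays, Poli for the difference of responses 0.0436 with the first and 0.0091 with both, and Rev1 in forestomach -0.0028 with the second. With the other probe, Rad18 was 0.0875 in lung at D3 and Polk -0.0857 between control tissues. Without single mice, Polh in lung at D3 ran from -0.0774 to 0.13, Polk in forestomach between -0.0537 and 0.11 (D1) and between -0.15 and 0.0908 (D3), Rev1 there from -0.015 to 0.10, Poli from -0.11 to 0.018 for the difference of responses, and Poli from -0.11 to 0.0127 and Rev1 from -0.077 to 0.0559 between control tissues. The dim probes of Polh, Polk (the second) and Rad18 limit what can be seen for them.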

Other observations

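Of the coding genes near Polk on its chromosome, chosen after the values of Polk were seen, Poc5, a centriole gene, gave a lung difference at D3 of 0.17 ± 0.10 (SE) and Cert1, which carries ceramide between membranes, gave 0.0011 ± 0.10. Neither was called by limma at any dose, with adjusted p at D3 of 0.58 and 0.998. Ankdd1b, also nearby, was well above background on 1 of 19 lung arrays.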
